A study of Kluyveromyces lactis with 8 samples.

Results

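Transcript levels in a strain of the milk yeast Kluyveromyces lactis that lacks SIR2 (sir2∆) were compared with those in a strain that lacks SIR4 (sir4∆). The comparison rests on 4 of the 8 libraries of the study, 2 of each strain, and on 5021 of the 5076 genes listed, those whose mean over these 4 libraries was 1 FPKM or more. FPKM, fragments per kilobase of gene and per M (mega) fragments, is a level scaled for gene length and library depth. The other 4 libraries, 2 of the wild type (WT) and 2 of a strain lacking SUM1 (sum1∆), entered the same fit and give reference levels.

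Sir2 is an NAD-dependent histone deacetylase and Sir4 is a structural silencing protein, and in Saccharomyces cerevisiae both belong to the complex that silences the mating-type cassettes and telomeres. Sum1 is a DNA-binding repressor, which in that yeast holds down middle sporulation genes together with the deacetylase Hst1, a relative of Sir2. The comparison asks which transcripts depend on Sir2 where Sir4 does not have the same role. The roles given below for single genes are those known from S. cerevisiae.

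All strains were MATa and in all of them the silent cassettes were deleted (hmr∆ hml∆), so the controls lack them as well. The WT strain is LRY2835, with SIR2 intact. The sir2∆ strain is LRY2850, the sir4∆ strain is LRY3096 and the sum1∆ strain is LRY3098, and each deletion is represented by that strain alone. Cells were taken in early log phase, after growth at 30 °C in the rich medium YPD from an OD of 0.3 to an OD of 1. The libraries of a strain are technical replicates per the series design, so the p-values measure only the spread between libraries and do not cover separate cultures. Libraries did not keep the strand, so reads of overlapping or antisense genes cannot be told apart, and close paralogs may share reads.

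The estimated depth was 10.1 and 21.2 M reads assigned to genes in sir2∆ and 10.6 and 11.5 M in sir4∆, against 21.7 and 11.9 M in WT and 21.8 and 26.2 M in sum1∆. Replicates differed beyond counting noise, chi-square values per degree of freedom running from 4.68 in sum1∆ to 16.8 in WT. No identifier carries the symbol SIR2 or SIR4, so neither deletion could be checked by symbol. For sir4∆ no other check was made, so the loss of SIR4 rests on the sample label. SUM1 was listed at 0 FPKM in both sum1∆ libraries. The a-cell receptor gene STE2 was at 10.1 and 9.43 FPKM in sir2∆ and at 10.0 and 9.82 FPKM in sir4∆. The alpha-cell genes STE3, SAG1 and AFB1 were also detected, at 11.0 to 21.5 FPKM in these 4 libraries, and none of the 3 was called between the strains. The markers MFA1, MFALPHA1, SPG1 and SNZ1 were not matched by symbol. All 5 sporulation markers (NDT80, IME1, SPS4, SSP2 and SPR3) were higher in sir2∆ and SPS4, for one, was at 99.5 and 93.0 FPKM there and at 22.8 and 18.0 FPKM in sir4∆ (log2 fold change 2.19). Of the stationary markers MOH1 was higher and SPG4 lower, with a log2 fold change of -1.48.

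In sir2∆ 439 genes were higher than in sir4∆, 8.74% of the genes tested, and 162 were lower, 3.23%. Calls needed an adjusted p (limma, Benjamini-Hochberg) under 0.05 together with a log2 fold change of 1 or more in size, on log2(FPKM + 1), a scale that understates the change of low genes. The median level of the higher genes was 64.2 FPKM in sir2∆, 18.1 FPKM in sir4∆, 24.6 FPKM in WT and 78.4 FPKM in sum1∆. The lower genes had median levels of 120 FPKM in sir2∆, 300 FPKM in sir4∆, 195 FPKM in WT and 111 FPKM in sum1∆. Over all genes tested the WT median was 63.2 FPKM. Of the higher genes 93 (21.2%) had a WT mean under 5 FPKM, against 2.51% of all genes tested and 0 of the 162 lower genes. These shares were partly set by the method. A gene low in WT and sir4∆ could pass the filter through sir2∆ alone, and a gene under 1 FPKM in sir4∆ cannot be called lower on this scale. Without the filter the calls were again 439 and 162.

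Of the calls 73.0% were higher in sir2∆. With quantile normalization the counts were 356 and 230, so that 60.8% were higher, and the median of all genes moved from -0.00 to -0.09. Without the fold threshold, 1808 genes were higher and 1750 were lower.

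**Figure D1:**
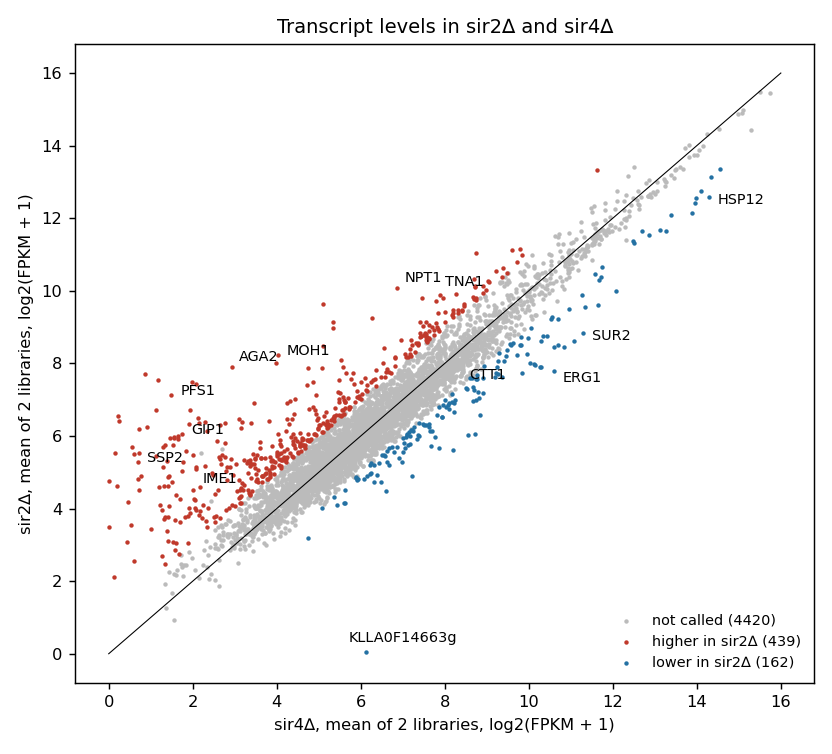
Each point is a gene, placed by its mean log2(FPKM + 1) over the 2 sir4∆ libraries (horizontal axis) and the 2 sir2∆ libraries (vertical axis), with the line of equal levels. The 439 genes called higher in sir2∆ spread from the low end of the sir4∆ axis upwards, with a median of 18.1 FPKM in sir4∆, and the 162 called lower had a median of 300 FPKM there, with KLLA0F14663g far below the others in sir2∆.

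Where WT stood between the strains differed with the size of the difference. On a scale where 0 is the sir4∆ mean and 1 is the sir2∆ mean (log2 levels), the WT mean had a median of 0.05 in the 125 genes with a log2 fold change of 2 or more and of 0.38 in the 314 higher genes under 2. By its medians the first set was like WT in sir4∆ and raised in sir2∆, at 4.26 FPKM in WT, 3.24 FPKM in sir4∆ and 53.2 FPKM in sir2∆. Not every member was like this: the WT mean of single genes ran from -0.19 to 1.09 on the scale. In the 162 lower genes the WT median was 0.48 on this scale, with quartiles of 0.38 and 0.60, so WT lay about midway. These are descriptions of genes selected by the sir2∆ to sir4∆ difference. The scale divides by that difference, so an equal gap between WT and sir4∆ gives a smaller value where the difference is larger. The values of 0.05 and 0.38 can partly reflect this.

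A library difference moved with the lower genes. In 156 of the 162 (96.3%) WT replicate 2 was above WT replicate 1, by a median of 0.29 on the log2 scale, against 49.1% of all genes tested. In 143 of them sir2∆ replicate 1 was above replicate 2, and in 148 sir4∆ replicate 1 was above replicate 2, each by a median of 0.15. Among the 439 higher genes WT replicate 2 was above replicate 1 in 25.3%. The median of the 162 genes was -1.32, and it was -1.24 among libraries under 15 M reads alone (the shallow class, which is WT replicate 2 with sir2∆ replicate 1 and the sir4∆ pair) and -1.20 with this depth class as a term.

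In the spore wall and late sporulation list 20 of 33 genes tested were higher in sir2∆, against 8.74% of all genes, and none was lower. The median log2 fold change was 1.65, against -0.00 over all genes, and 1.33 with quantile normalization. Genes of this list act when a spore is built. Some were well expressed in growing WT cells all the same, such as EMI1 at 263 and 238 FPKM. In bulk RNA, more cells with a transcript and more transcript per cell cannot be told apart.

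SSP2, needed for the outer spore wall, was at 37.8 and 37.5 FPKM in sir2∆ and at 0.560 and 0.699 FPKM in sir4∆. WT had 0.700 and 0.277 FPKM and sum1∆ 41.1 and 40.7 FPKM. Both sir4∆ libraries were thus beside the WT libraries and both sir2∆ libraries were far above them (log2 fold change 4.57, SE 0.14, adjusted p = 9e-08). Against WT the log2 difference was 4.72 in sir2∆, with a 95% interval from 4.39 to 5.04, and 0.14 in sir4∆, with an interval from -0.18 to 0.47.

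GIP1, which directs the phosphatase Glc7 during sporulation, was at 62.6 and 68.0 FPKM in sir2∆ and at 2.23 and 2.44 FPKM in sir4∆ (log2 fold change 4.31, SE 0.07, adjusted p = 5.94e-09). WT had 3.35 and 3.21 FPKM, a little above both sir4∆ libraries. CRR1, an enzyme of spore wall assembly, was at 40 and 38.0 FPKM in sir2∆, 1.66 and 1.56 FPKM in sir4∆ and 1.70 and 1.44 FPKM in WT. MUM3, another spore wall gene, was at 53.4 and 52.8 FPKM in sir2∆ and at 2.50 and 1.41 FPKM in sir4∆. For both genes the sir4∆ values overlapped those of WT, and the log2 fold changes between the deletions were 3.94 and 4.22.

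PFS1, a gene of ascospore formation, had the largest log2 fold change of any gene with a symbol, at 5.63 (SE 0.09, adjusted p = 3.81e-09). It was at 140 and 136 FPKM in sir2∆ and at 1.59 and 2.04 FPKM in sir4∆. WT, with 4.80 and 4.50 FPKM, was above both sir4∆ libraries, so this gene lay on opposite sides of WT in the deletions. The sir4∆ difference from WT was -1.01, with a 95% interval from -1.21 to -0.81.

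The dityrosine genes DIT1 and DIT2, which make the outermost layer of the spore, had log2 fold changes of 1.81 and 3.27. OSW2, of the outer spore wall, stood at 2.90 and AMA1, the meiotic activator of the anaphase-promoting complex, at 2.88. NDT80, the transcription factor that switches on middle sporulation genes, was at 55.3 and 49.0 FPKM in sir2∆ and at 17.1 and 15.2 FPKM in sir4∆ (log2 fold change 1.63, adjusted p = 1.2e-06). Its WT values of 17.2 and 17.9 FPKM were near those of sir4∆. Not every member differed: SPS18 was at 208 and 211 FPKM in sir2∆ and at 205 and 212 FPKM in sir4∆, and SPO73 had the lowest value of the list, a log2 fold change of -0.68 that was not called.

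Prospore membrane and septin genes were mixed, with 3 of 13 higher, against 8.74% of all genes, and none lower, or 3 higher and 1 lower with quantile normalization. The sporulation septin SPR3 was at 37.4 and 35.9 FPKM in sir2∆ and at 6.66 and 4.23 FPKM in sir4∆ (log2 fold change 2.57). In sum1∆ it reached 159 FPKM in both libraries. SSP1, of the leading edge of the prospore membrane, and ADY4 had log2 fold changes of 2.50 and 1.42. The median of this list was 0.14, and -0.02 with quantile normalization.

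Among early meiosis genes 13 of 32 were higher in sir2∆, against 8.74% of all genes, and none was lower, with a median log2 fold change of 0.71. With quantile normalization 9 were higher, 4 were lower and the median was -0.02, so the direction of the list as a whole depends on the scaling. IME1, the activator of entry into meiosis, was at 35.7 and 33.6 FPKM in sir2∆, 2.72 and 3.75 FPKM in sir4∆ and 4.31 and 3.46 FPKM in WT. The sir4∆ and WT values overlapped, and the log2 fold change between the deletions was 3.08 (SE 0.13, adjusted p = 5.69e-07).

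PHO92, which binds methylated mRNA in meiosis, was at 77.7 and 86.3 FPKM in sir2∆ and at 3.43 and 4.35 FPKM in sir4∆ (log2 fold change 4.09). MND1, a recombination factor, and NDJ1, which tethers meiotic telomeres, had log2 fold changes of 2.42 and 2.41. MUM2, of the mRNA methylation complex, and MLH2, of mismatch repair, followed with 2.26 and 2.11. SPO11, which makes the meiotic double-strand breaks, was low everywhere, at 4.26 and 2.59 FPKM in sir2∆ and at 0 and 0.190 FPKM in sir4∆. Genes of the same programme such as REC8, DMC1 and PCH2 had values of -0.23, 0.04 and 0.05 and were not called.

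**Figure D2:**
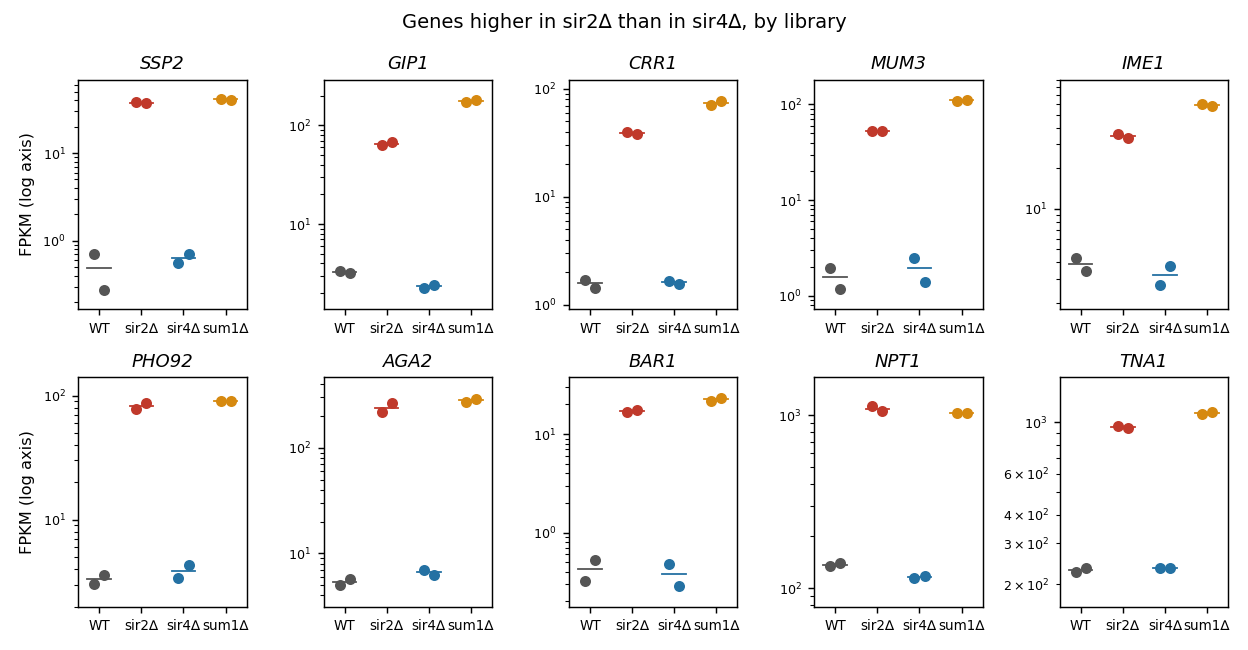
FPKM on a log axis in each of the 2 libraries (points) of WT, sir2∆, sir4∆ and sum1∆ for 10 genes higher in sir2∆ than in sir4∆, with a bar at the group mean. In each panel the sir2∆ and sum1∆ points lie high and the WT and sir4∆ points lie low, for example 37.8 and 37.5 FPKM against 0.560 and 0.699 FPKM for SSP2 in the deletions of SIR2 and SIR4.

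Of 6 a-specific genes, which a cells use to mate, 3 were higher in sir2∆, against 8.74% of all genes. AGA2, the binding subunit of a-agglutinin, was at 218 and 262 FPKM in sir2∆, 6.98 and 6.23 FPKM in sir4∆ and 4.98 and 5.75 FPKM in WT (log2 fold change 4.98, SE 0.10, adjusted p = 1.18e-08). Its coding length is 273 bases, so its level depends more on the length correction than that of longer genes. BAR1, the protease that degrades alpha factor, was at 16.9 and 17.6 FPKM in sir2∆ and at 0.481 and 0.286 FPKM in sir4∆ (log2 fold change 3.72). ASG7 had a log2 fold change of 1.32, which was 0.88 at a pseudocount of 5 and 0.48 after quantile normalization, and was not called in either case. The other a-specific genes were not all alike: STE2 and STE6 had values of -0.02 and -0.03. Quantile normalization took the list median from 0.99 to 0.02.

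Of 29 haploid and pheromone response genes 4 were higher and 1 was lower, against 8.74% and 3.23% of all genes, and the median was 0.07 (-0.25 after quantile normalization). GPA1, the alpha subunit of the pheromone G protein, was at 22.1 and 21.7 FPKM in sir2∆, 5.15 and 5.02 FPKM in sir4∆ and 4.68 and 5.25 FPKM in WT (log2 fold change 1.91). STE18, the gamma subunit, was at 80 and 70.7 FPKM in sir2∆ and at 0 and 2.49 FPKM in sir4∆, with a coding length of 273 bases. PRM1, of membrane fusion in mating, and KAR4, a transcription factor of mating and meiosis, had log2 fold changes of 2.71 and 1.69. STE23, a protease that processes a-factor, went the other way, at 48.6 and 47.6 FPKM in sir2∆ and at 320 and 269 FPKM in sir4∆ (log2 fold change -2.58). None of the 3 alpha-specific genes tested was called, with STE3 at -0.52 and AFB1 at -0.67. With quantile normalization these were -1.01 and -1.07 and were called lower.

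In NAD metabolism 2 of 11 genes were higher and 1 was lower, against 8.74% and 3.23% of all genes. NPT1, which salvages nicotinic acid, was at 1130 and 1050 FPKM in sir2∆, 114 and 118 FPKM in sir4∆, 134 and 140 FPKM in WT and 1030 FPKM in both sum1∆ libraries. The sir2∆ mean was 9.36 times the sir4∆ mean (log2 fold change 3.22, SE 0.06, adjusted p = 5.94e-09). TNA1, the nicotinic acid permease, was at 961 and 941 FPKM in sir2∆ and at 234 FPKM in both sir4∆ libraries (log2 fold change 2.02, SE 0.05, adjusted p = 2.09e-08). Its WT values were 225 and 234 FPKM, and the sir4∆ difference from WT was 0.03, with a 95% interval from -0.08 to 0.14. The other 9 members lay between -1.07 and 0.53, and the list median was -0.32. ISN1, an inosine monophosphate nucleotidase, was the lower one, and its call was lost with depth class as a term (-0.95).

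MOH1, MET14 and CIT3, from other lists, also had values near those of WT in sir4∆. MOH1, a gene linked to stationary phase survival, was at 309 and 294 FPKM in sir2∆, 14.4 and 16.1 FPKM in sir4∆ and 15.9 and 19.0 FPKM in WT (log2 fold change 4.22). MET14, adenylylsulfate kinase of sulfate assimilation, was at 77.7 and 84.4 FPKM in sir2∆ and at 10.9 and 8.25 FPKM in sir4∆ (log2 fold change 2.97). CIT3, a mitochondrial citrate synthase, was at 11.5 and 9.81 FPKM in sir2∆ and at 0.439 and 0.470 FPKM in sir4∆ (log2 fold change 3.0). Each of these 3 genes was high in sum1∆ too.

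The largest rises were of genes without a symbol. KLLA0F24596g was at 206 and 207 FPKM in sir2∆, 0.698 and 0.935 FPKM in sir4∆ and 0.779 and 0 FPKM in WT, for a log2 fold change of 6.84. KLLA0F05379g was at 185 and 189 FPKM in sir2∆ and at 1.44 and 1.10 FPKM in sir4∆, with a log2 fold change of 6.38. Of all higher genes 37.1% had no symbol, and of the lower genes 34.0%, against 21.2% of the genes tested.

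The difference between sum1∆ and WT uses none of the sir2∆ and sir4∆ libraries and so gives a separate readout for the same genes. In sum1∆ 388 genes were higher than in WT, 7.73% of the genes tested, and 144 were lower, 2.87%. Of the 439 genes higher in sir2∆ than in sir4∆, 288 (65.6%) were also higher in sum1∆ than in WT, and these were 74.2% of the 388. The share ranged from 58.2% without WT replicate 2 to 69.8% without WT replicate 1. Among the 125 genes with a log2 fold change of 2 or more it was 113, and among the 38 with 4 or more it was 37. Of the 162 lower genes 54 (33.3%) were also lower in sum1∆, 37.5% of the 144, and 0 were higher.

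SUM1 itself was higher in sir2∆, at 56.6 and 59.8 FPKM against 22.1 and 24.6 FPKM in sir4∆ and 31.2 and 28 FPKM in WT (log2 fold change 1.28, adjusted p = 7.48e-06). It was the 1 called member of 12 silencing factors, a share near the 8.74% of all genes.

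**Figure D3:**
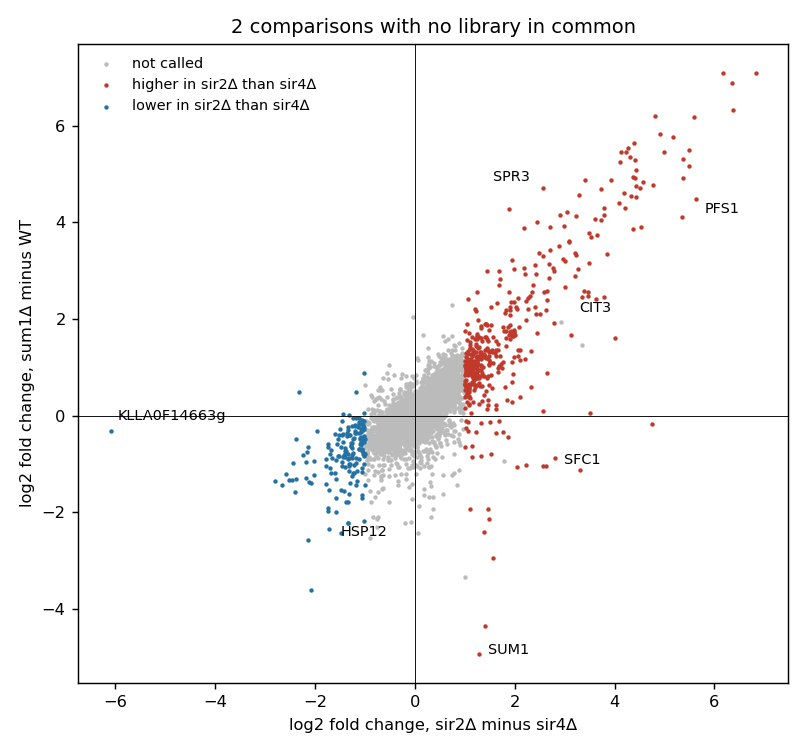
Each point is a gene, placed by its log2 fold change between sir2∆ and sir4∆ (horizontal axis) and between sum1∆ and WT (vertical axis), which share no library. Genes far to the right lie mostly high: 113 of the 125 with a log2 fold change of 2 or more were called higher in sum1∆, and SFC1 is among the 12 that were not.

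The 12 genes that differed by 2 or more and were not called higher in sum1∆ were examined after their values were seen. In sum1∆ 5 of the 12 were called lower than in WT, against 2.87% of all genes tested. The 12 were picked for not being called higher in sum1∆, which raises that share. SFC1, the mitochondrial succinate and fumarate carrier, was at 218 and 250 FPKM in sir2∆, 31.9 and 33.2 FPKM in sir4∆, 129 and 94.0 FPKM in WT and 57.7 and 60.2 FPKM in sum1∆. It lay above WT in sir2∆ and below it in sir4∆. KLLA0D08811g, which has no symbol, was at 264 and 280 FPKM in sir2∆ and between 43.8 and 54.2 FPKM in all other libraries, so it was raised in sir2∆ and not in sir4∆ or sum1∆ (log2 fold change 2.56, adjusted p = 7.97e-08). KLLA0C18711g and KLLA0E16149g were listed at 0 in both sir4∆ libraries, and each also varied widely between WT libraries, with 6.88 and 0 FPKM for the first and 3.44 and 44.5 FPKM for the second.

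Chromosome ends were looked at because Sir proteins silence telomeres in other yeasts. Among the outermost protein-coding genes, 10 from every one of the 12 ends, 84 were tested. The other 36 of the 120 were under 1 FPKM in mean over the sir2∆ and sir4∆ libraries, and 19 genes elsewhere were. A low gene could pass that filter through a high level in sir2∆ alone, so the shares are given over all listed genes, tested or not. Of the 120 end genes 18 (15%) were called higher in sir2∆ and 4 (3.33%) lower, against 8.49% and 3.19% of the 4956 other genes. These shares are a description, with no test. Of the 18 higher genes 7 were also called higher in sum1∆ than in WT and 5 were called lower, against 65.6% and 2.73% of all 439 higher genes.

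KLLA0A00132g, at an end of chromosome A, was at 46.2 and 43.9 FPKM in sir2∆, 0.162 and 0.0722 FPKM in sir4∆ and 46.1 and 47.0 FPKM in sum1∆, so it was high in both strains that lack SIR2 or SUM1. The neighbours KLLA0B14916g and KLLA0B14927g differed from it. KLLA0B14927g was at 33.3 and 30.8 FPKM in sir2∆, 2.61 and 2.09 FPKM in sir4∆, 1.96 and 1.13 FPKM in WT and 0.272 and 0.0460 FPKM in sum1∆. KLLA0E24861g and KLLA0E24883g, neighbouring genes at an end of chromosome E, were low in sir4∆ instead: the second was at 16.4 and 22.2 FPKM there, with sir2∆ at 130 and 119 FPKM and WT at 108 and 67.7 FPKM. These end genes were chosen after their values were seen. Over the whole genome 125 of the 439 higher genes (28.5%) lay next to another higher gene, against 16.4% of the genes tested. For the lower genes these shares were 4.32% and 6.29%.

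Of 32 sterol synthesis genes tested 12 were lower in sir2∆ than in sir4∆, against 3.23% of all genes, and 1 was higher, with a median log2 fold change of -0.77. In all, 30 of the 32 had a negative value. The largest differences were in ERG1, ERG11, ERG3 and ERG25, and in the called genes both deletions departed from WT in opposite directions.

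ERG1, squalene epoxidase, was at 235 and 206 FPKM in sir2∆, 634 and 810 FPKM in WT and 1570 and 1520 FPKM in sir4∆. The 3 groups did not overlap, and the sir4∆ mean was 7.0 times the sir2∆ mean (log2 fold change -2.81, SE 0.12, adjusted p = 7.13e-07). Against WT, ERG1 differed by -1.70 in sir2∆, with a 95% interval from -1.99 to -1.41, and by 1.11 in sir4∆, with an interval from 0.82 to 1.39. In sum1∆ it was at 256 and 301 FPKM, below WT as in sir2∆.

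ERG11, the lanosterol demethylase that azole drugs inhibit, was at 417 and 370 FPKM in sir2∆, 873 and 1130 FPKM in WT and 2180 and 2120 FPKM in sir4∆ (log2 fold change -2.45). ERG3, a sterol desaturase, was at 363 and 333 FPKM in sir2∆, 543 and 739 FPKM in WT and 2000 and 1650 FPKM in sir4∆ (log2 fold change -2.38). ERG25, a sterol methyl oxidase, was at 814 and 759 FPKM in sir2∆, 1480 and 1830 FPKM in WT and 3340 and 3050 FPKM in sir4∆ (log2 fold change -2.02). In each of these 3 genes sir2∆ was lowest, WT was between and sir4∆ was highest, with no overlap.

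Enzymes of earlier steps differed less than ERG1, ERG11, ERG3 and ERG25, but not less than every called ERG gene. The smallest difference of the 12 lower genes was that of ERG5. HMG1, the HMG-CoA reductase that limits the flow into the pathway, was at 119 FPKM in both sir2∆ libraries and at 295 and 256 FPKM in sir4∆ (log2 fold change -1.20). ERG13 and ERG10, which act before it, had values of -1.21 and -1.33. UPC2, a transcription factor that activates sterol genes, was at 67.9 and 58.3 FPKM in sir2∆, 112 and 122 FPKM in WT and 147 and 141 FPKM in sir4∆ (log2 fold change -1.18). ERG9, which makes squalene, had a value of -0.55, and ERG8 and IDI1, of the mevalonate steps, had -0.21 and -0.35, and none of the 3 was called.

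SUT1, a transcription factor of sterol uptake, was the member that was higher in sir2∆. It was at 186 and 182 FPKM there, 147 and 83.9 FPKM in WT and 40 and 48.5 FPKM in sir4∆ (log2 fold change 2.04, SE 0.22, adjusted p = 6.99e-05). Its order of sir2∆, WT and sir4∆ was thus the reverse of that of the ERG genes.

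**Figure D4:**
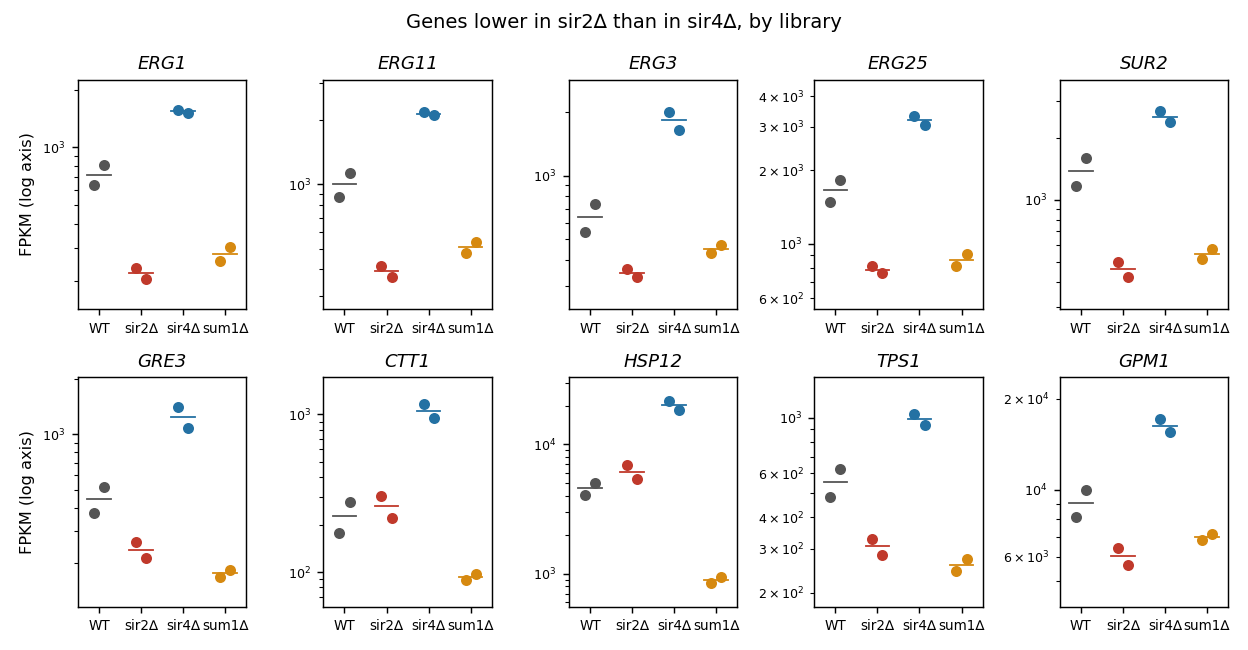
FPKM on a log axis in each of the 2 libraries (points) of WT, sir2∆, sir4∆ and sum1∆ for 10 genes lower in sir2∆ than in sir4∆, with a bar at the group mean. In the ERG genes, SUR2, GRE3, TPS1 and GPM1 the sir2∆ points lie below WT and the sir4∆ points above it, whereas for CTT1 and HSP12 sir2∆ lies near WT and only sir4∆ stands well above it.

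SUR2, SCS7 and HEM13 had the order of the called ERG genes. SUR2 and SCS7 were the 2 of 19 sphingolipid genes that were lower, against 3.23% of all genes, and none was higher. The list median was -0.32. SUR2, the sphinganine hydroxylase, was at 497 and 419 FPKM in sir2∆, 1160 and 1600 FPKM in WT and 2680 and 2370 FPKM in sir4∆ (log2 fold change -2.46). SCS7, which hydroxylates the fatty acid of ceramides, had a log2 fold change of -1.35. OLE1, the fatty acid desaturase counted in the sterol list, was at 1650 and 1570 FPKM in sir2∆ and at 3730 and 3120 FPKM in sir4∆. HEM13, coproporphyrinogen oxidase of haem synthesis, was at 403 and 325 FPKM in sir2∆, 770 and 967 FPKM in WT and 1690 and 1610 FPKM in sir4∆ (log2 fold change -2.19).

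Among 31 stress response genes tested 9 were lower in sir2∆ and 2 were higher, against 3.23% and 8.74% of all genes, with a median of -0.10. The count of 9 depended on single libraries: it was 5 without sir2∆ replicate 2 and 5 without sir4∆ replicate 1. It was also 5 with depth class as a term and 5 in the shallow libraries alone, a setting added after the data were seen.

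CTT1, the cytosolic catalase, was at 306 and 219 FPKM in sir2∆, 176 and 278 FPKM in WT and 1160 and 951 FPKM in sir4∆ (log2 fold change -2.01, SE 0.22, adjusted p = 8.33e-05). The sir2∆ and WT values overlapped, and sir4∆ was above both. HSP12, a membrane-binding stress protein, was at 6930 and 5410 FPKM in sir2∆, 4050 and 5070 FPKM in WT and 21600 and 18600 FPKM in sir4∆ (log2 fold change -1.71). In sum1∆ it was at 846 and 940 FPKM, below WT. ARA1, an arabinose dehydrogenase, was at 58.0 and 45.6 FPKM in sir2∆, 38.9 and 53.8 FPKM in WT and 228 and 183 FPKM in sir4∆ (log2 fold change -1.97).

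For these 3 genes the difference lay mainly in sir4∆: against WT the log2 differences of CTT1, HSP12 and ARA1 were 0.23, 0.44 and 0.17 in sir2∆ and 2.24, 2.15 and 2.13 in sir4∆. The aldose reductase GRE3 had the order of the sterol genes, at 262 and 213 FPKM in sir2∆, 376 and 519 FPKM in WT and 1410 and 1090 FPKM in sir4∆ (log2 fold change -2.38). FMP16 and MSC1 lay above WT in both deletions, by 1.00 and 0.62 in sir2∆ and by 2.06 and 1.72 in sir4∆. HSP78 and HSP42, chaperones of the mitochondria and the cytosol, were higher in sir2∆, with log2 fold changes of 1.24 and 1.09. Heat shock genes such as HSP82 and SSA2, at 0.16 and 0.01, and the superoxide dismutase SOD1, at 0.02, were not called.

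Of 7 trehalose and glycogen genes 4 were lower and 1 was higher, against 3.23% and 8.74% of all genes, with a median of -1.32. TPS1, trehalose-phosphate synthase, was at 329 and 283 FPKM in sir2∆, 483 and 627 FPKM in WT and 1040 and 939 FPKM in sir4∆ (log2 fold change -1.69). TPS2 and TPS3, of the same enzyme complex, had log2 fold changes of -1.57 and -1.32, and the glycogen branching enzyme GLC3 had -1.38. The higher member was ATH1, the acid trehalase that breaks trehalose down, at 36.8 and 36.4 FPKM in sir2∆, 12.2 and 13.1 FPKM in WT and 10.5 and 8.77 FPKM in sir4∆ (log2 fold change 1.83). In the stationary phase list TMA17, a proteasome assembly factor induced by stress, was at 390 and 313 FPKM in sir2∆, 669 and 963 FPKM in WT and 1570 and 1510 FPKM in sir4∆ (log2 fold change -2.14).

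All 9 glycolysis genes tested were lower in sir2∆ than in sir4∆, against 3.23% of all genes, with log2 fold changes between -1.78 and -1.13 and a median of -1.33. The list named 22 genes, and only these 9 were matched by symbol. Their WT levels ran from 211 and 255 FPKM for GPM3, a phosphoglycerate mutase, to 10500 and 12900 FPKM for FBA1, against a median of 63.2 FPKM over all genes tested. FBA1, aldolase, was at 9580 and 8430 FPKM in sir2∆, 10500 and 12900 FPKM in WT and 21600 and 19900 FPKM in sir4∆ (log2 fold change -1.21). PGK1, phosphoglycerate kinase, was at 7390 and 6530 FPKM in sir2∆, 9050 and 10700 FPKM in WT and 18700 and 16200 FPKM in sir4∆ (log2 fold change -1.33). GPM1, phosphoglycerate mutase, was at 6440 and 5640 FPKM in sir2∆ and at 17100 and 15500 FPKM in sir4∆ (log2 fold change -1.43). In all 9 genes WT lay between the deletions, nearer in median to sir2∆, with a median of -0.59 for sir2∆ against WT and 0.83 for sir4∆ against WT. With quantile normalization 6 of the 9 were called, and the median was -1.08.

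Of 7 galactose and lactose genes 2 were lower, against 3.23% of all genes: SUC2, at 472 and 391 FPKM in sir2∆ and at 1350 and 1230 FPKM in sir4∆, and GAL7, with a log2 fold change of -1.48. GAL7 was at 238 and 190 FPKM in sir2∆ and at 580 and 608 FPKM in sir4∆, near the WT values of 495 and 530 FPKM. In gluconeogenesis and the glyoxylate cycle 5 of 23 genes were higher, against 8.74% of all genes, and 1 was lower. With quantile normalization 3 were higher and 2 lower. The 1 lower gene, GUT2, was not called with that normalization (-0.99), without sir2∆ replicate 2 (-0.86), without sir4∆ replicate 1 (-0.96) or with depth class as a term (-0.92). ICL1, isocitrate lyase, was at 27.6 and 31.3 FPKM in sir2∆ and at 7.12 and 6.55 FPKM in sir4∆ (log2 fold change 1.96), and SIP4, an activator of gluconeogenic genes, had a log2 fold change of 1.63.

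Of 115 ribosome biogenesis genes 31 were higher in sir2∆, against 8.74% of all genes, and none was lower, with a median log2 fold change of 0.76, and 111 of the 115 had a positive value. With quantile normalization 19 were called and the median was 0.65, and a test against a log2 fold change of 1 (limma treat) left 3. RRP1, of the large subunit pathway, was at 109 and 113 FPKM in sir2∆, 72.8 and 52.9 FPKM in WT and 27.0 and 29.3 FPKM in sir4∆ (log2 fold change 1.95). DIM1, the rRNA dimethylase, was at 129 and 140 FPKM in sir2∆ and at 42.4 and 50.9 FPKM in sir4∆ (log2 fold change 1.52). The list stood at a median of 0.25 for sir2∆ against WT and of -0.53 for sir4∆ against WT.

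Of 56 mitochondrial ribosomal protein genes 23 were higher, against 8.74% of all genes, and none was lower, with a median of 0.92, and all 56 values were positive. The test against a log2 fold change of 1 left 5 of them. MRPL15 was at 446 and 474 FPKM in sir2∆, 272 and 230 FPKM in WT and 159 and 178 FPKM in sir4∆ (log2 fold change 1.44). The median of cytosolic ribosomal proteins was -0.22, and 1 of 56 was called lower, against 3.23% of all genes, and none higher. This was RPL9B, at 428 and 441 FPKM in sir2∆ against 1390 FPKM in both sir4∆ libraries (log2 fold change -1.68). The respiratory chain had 6 of 32 genes higher, against 8.74% of all genes, with CYC7, an isoform of cytochrome c, at 10200 and 10300 FPKM in sir2∆ and at 3020 and 3320 FPKM in sir4∆ (log2 fold change 1.70).

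Nutrient genes gave calls in both directions. Phosphate genes had 2 of 15 higher and 2 lower, against 8.74% and 3.23% of all genes, and 1 was lower with depth class as a term. Sulfate and methionine genes had 1 of 29 higher, against 8.74% of all genes, and 3 lower, against 3.23%. SPL2, a regulator of phosphate transport, was at 198 and 275 FPKM in sir2∆, 56.5 and 64.6 FPKM in WT and 29.0 and 23.2 FPKM in sir4∆ (log2 fold change 3.12). The ferric reductase FRE1 and the copper transporter CTR1 were the 2 of 21 iron and copper genes that were higher, a share near the 8.74% of all genes, and the list median was -0.16. CTR1 was at 284 and 292 FPKM in sir2∆, 307 and 240 FPKM in WT and only 90 and 140 FPKM in sir4∆, so it was low in sir4∆ alone of these 3 strains. The aldehyde dehydrogenase ALD6 was also low in sir4∆, at 421 and 407 FPKM against 800 and 943 FPKM in sir2∆ (log2 fold change 1.07, 0.95 and not called without sir2∆ replicate 2). The peptide permease PTR2 was the 1 called member of 17 amino acid and peptide uptake genes. It was lower, against 3.23% of all genes called lower. With quantile normalization 3 genes of this list were lower. PTR2 was at 131 and 123 FPKM in sir2∆ and at 434 and 417 FPKM in sir4∆, with WT at 403 and 385 FPKM (log2 fold change -1.73).

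**Figure D5:**
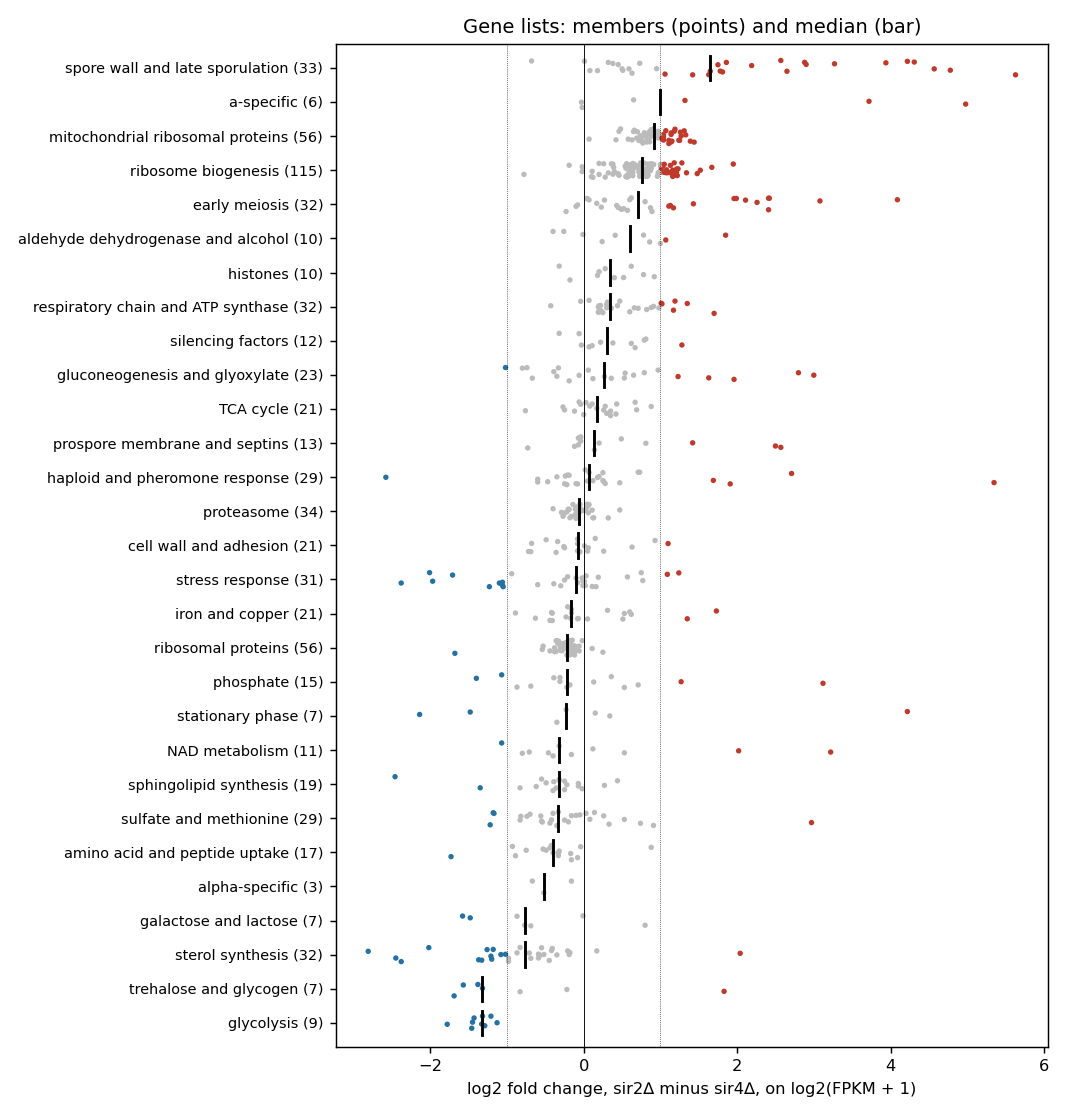
Each point is a gene of the list named at the left, with the number tested in brackets, placed by its log2 fold change between sir2∆ and sir4∆; red points were called higher, blue points lower and grey points neither, and black bars are list medians. Medians run from 1.65 in spore wall and late sporulation to -1.33 in glycolysis, and dotted lines mark a log2 fold change of 1 in either direction.

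No member was called among 34 proteasome, 21 TCA cycle and 10 histone genes, against 8.74% of all genes called higher and 3.23% lower. Their largest values in size were 0.47 for RPN4 in the proteasome list, 0.88 for IDP1 in the TCA cycle list and 0.92 for HTA1 among histones. With quantile normalization 1 histone gene, HHF1, was called higher (1.02).

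KLLA0F14663g, which has no symbol, had the largest difference of the lower genes. It was at 0.0513 and 0 FPKM in sir2∆, 67.6 and 70.6 FPKM in sir4∆, 73.2 and 71.0 FPKM in WT and 58.5 and 56.3 FPKM in sum1∆ (log2 fold change -6.10, adjusted p = 8.31e-10). Of the 8 libraries only the 2 of sir2∆ had it near 0, as SUM1 was in sum1∆ alone. No symbol ties this identifier to SIR2, so whether it is the deleted gene itself was not tested. It is counted among the 162 lower genes. KLLA0C19338g, near an end of chromosome C, was at 28.9 and 28.3 FPKM in sir2∆, 27.9 and 46.4 FPKM in WT and 180 and 121 FPKM in sir4∆ (log2 fold change -2.33).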

How the data were processed

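RNA was measured in 8 libraries of K. lactis in 4 groups of 2, read as single 50-base reads from non-stranded libraries. The deposited values are FPKM for 5076 genes per library. TopHat2 2.0.10 and Cuffnorm 2.2.1 are named in the submitters' processing notes, and neither build nor annotation is named (not given in the sources used here). FPKM are not counts, so no count model was used.

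Symbols (for 3959 genes) and gene order came from a RefSeq table of assembly ASM251v1, whose locus tags matched all 5076 identifiers. Its lengths, 97.8% of them multiples of 3, are coding lengths. Its coordinates are not printed. Promoter motifs were not analysed here.

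Genes with a mean of 1 FPKM or more over the sir2∆ and sir4∆ libraries were tested in limma 3.58.1 (R 4.3.3), using log2(FPKM + 1), a mean-dependent prior and all 8 libraries in 4 groups (4 residual and 4.01 prior degrees of freedom). P-values were Benjamini-Hochberg adjusted over 5021 genes. An exact 2-sided permutation test of 2 against 2 libraries cannot go below p = 0.333, so single genes rest on the model. The steps were tested on simulated data. Python 3.11.15, numpy 2.4.6, pandas 2.3.3 and matplotlib 3.10.9 did the rest.

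Since 1 read adds a fixed step at a given length, the steps of low FPKM values gave the depth, with fragments taken as 200 bases in mean and 80 in SD. Genes of up to 100 reads and more than 600 bases came out whole within 0.1 in 97.8% to 100% per library. The step was chosen to make these values whole, so that share is no check of the depth. The number of such genes ran from 10 in sum1∆ replicate 2 to 199 in sir4∆ replicate 1, with 13 in sir2∆ replicate 2. Depth class splits libraries at 15 M reads. The estimate covers counting error only.

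The genes and the 29 lists were chosen with earlier results of these data known. Named were SUM1, the 15 largest rises and 15 largest falls with a symbol, the 5 largest of each without one, and per list up to 4 called members in each direction by size, or the 2 largest where none was called. Other list members are named as examples, chosen after their values were seen. No list was tested: counts stand beside the share of all genes called. List members were matched by symbol and those without a match were left out, so a list need not cover its whole pathway. Matched were 9 of 22 in glycolysis, 7 of 20 in trehalose and glycogen, 31 of 58 in stress response and 7 of 22 in stationary phase. Of the proteasome list all 34 were matched. Alternatives were the pseudocount (0.1 and 5), the filter, the scaling, the trend, the libraries fitted, treat, a replicate block, depth class and leaving out each library. Replicate numbers do not pair libraries per the labels, and the difference between replicates 1 and 2 had a correlation of 0.00 across genes between sir2∆ and sir4∆.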

Additional observations from a re-analysis of the deposited data

Results flagged for a closer look

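Members that were called and had both sir2∆ libraries on one side of both WT libraries and both sir4∆ libraries on the other are listed here because the deletions then moved apart from WT. The difference between the deletions was tested by limma in each gene, but the genes were selected by that difference, which also shapes these counts. Over all genes tested 36.1% had this arrangement, over the higher genes 67.0% and over the lower genes 87.7%.

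Counting calls in both directions, this held for 9 of 9 called glycolysis genes, 5 of 5 trehalose and glycogen genes and 5 of 11 stress response genes. It held for 13 of 13 called sterol synthesis genes, SUT1 included. Among genes higher in sir2∆ it held for 27 of 31 ribosome biogenesis genes, 22 of 23 mitochondrial ribosomal protein genes and 5 of 6 respiratory chain genes. Spore wall and late sporulation genes differed, with 9 of 20: in the other called members at least 1 sir4∆ library was not below both WT libraries. In gluconeogenesis and the glyoxylate cycle the count was 5 of 6, in phosphate genes 3 of 4 and in sulfate and methionine genes 3 of 4.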

How the results depend on the processing

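The counts of 439 higher and 162 lower genes kept within 1.5 times under every alternative except treat, limma's test against a log2 fold change of 1, which is stricter by construction and called 217 and 57. Leaving out each library in turn gave 402 to 492 higher and 137 to 186 lower genes. A replicate block gave 439 and 162, the same as the fit without it. The labels do not pair the libraries, and the correlation of replicate differences was -0.17 between WT and sir2∆ and -0.25 between WT and sir4∆. Depth class as a term gave 400 and 129, of which 397 and 129 were among the original calls, and the shallow libraries alone, added after the data were seen, gave 412 and 141. A pseudocount of 5 gave 371 and 144. Under treat the list counts were 3 of 31 called ribosome biogenesis genes, 5 of 23 mitochondrial ribosomal protein genes, 5 of 12 lower sterol genes, 3 of 9 glycolysis genes and 18 of 20 spore wall genes. Of 2200 values of the 110 named genes under 20 alternatives, 0 changed direction among called genes, 40 lost a call and 3 gained one. Outside treat 7 called genes lost a call in any alternative: ASG7, EXG1, SIP4, GUT2, ISN1, ALD6 and PHO91. The medians of 3 lists changed sign, early meiosis, prospore membrane and haploid genes, all with quantile normalization. Causes were not tested. Depth limits genes near 0 FPKM in sir4∆, whose fold changes depend on the pseudocount, and with 2 technical replicates differences between cultures cannot be seen.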
